A study of Mus musculus with 6 samples.

Results

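The genes described here encode the chains of the collagens and the laminins, the main structural proteins of the extracellular matrix. They were taken as the protein-coding rows whose symbol is Col, a number, a and a number, or Lama, Lamb or Lamc followed by a digit. The rule found 55 of the 32067 features of the deposited table, 44 collagen and 11 laminin genes. RNA came from whole hippocampus of wild type female C57BL/6J mice aged 17 weeks, all of them ovariectomised at 8 weeks, an operation that lowers estrogen in the blood. From then on the mice of the OVX group (3 libraries) were fed plain control food, and those of the OVX+RJ group (3 libraries) food that contained 1% royal jelly, the secretion with which honeybees feed their larvae. Both groups lack ovaries, and the sham-operated mice that the protocol names are not analysed here. The labels call each library a biological replicate and do not say whether RNA of several animals was pooled, so the p-values measure the spread between these libraries.

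Collagens are trimers of chains with long Gly-X-Y repeats, and they differ in what they build. Fibrillar collagens form the fibres of connective tissue, which in the brain are found mostly in the meninges and around larger vessels. Collagen IV forms the sheet of the basement membrane, the thin matrix layer under endothelial cells and around brain capillaries. Laminins are cross-shaped trimers of an alpha, a beta and a gamma chain that form the second network of the same layer, and nidogen and perlecan join the networks. Other collagens bind to fibre surfaces or span the membrane of neurons.

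The deposited totals were between 34718596.5 and 58163785 counts per library. The 55 genes together made up between 0.0489% and 0.0581% of them, and 52 passed the filter on low counts. OVX+RJ 1 was the library least like the rest, with a mean Pearson correlation of 0.983 with the other 5 across genes, against 0.986 to 0.987 for each of the others. Of the hippocampal neuron markers, all 11 listed genes passed the filter in this labelled hippocampus, and their summed level was between 4550 and 4984 CPM (counts scaled to the total of the library, the usual CPM) in each library. In bulk tissue, fewer cells of a type and less RNA per cell cannot be told apart.

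Per length, Col25a1 had the highest level of the family. Its transmembrane collagen is made by neurons and was first found in amyloid plaques. It stood at 13.4 CPM per kilobase of its longest annotated transcript, with a range of 12.3 to 14.7 over the 6 libraries, and no other member reached that range. The next 4 in order were Col4a2 (7.89 CPM per kilobase), Lamb1 (7.44), Col6a1 (7.09) and Col4a1 (6.17), and the ranges of these 4 overlapped. Lamc1 followed at 4.68 CPM per kilobase (4.44 to 4.98), below the lowest library of each of those 4. Col11a2, whose range reached into that of Lamc1, Col19a1 and Lamb2 came next at 3.97, 3.91 and 3.65 CPM per kilobase, with overlapping ranges. The common collagen I chains, which dominate skin and bone, were far down the order, with Col1a2 at 0.790 and Col1a1 at 0.459 CPM per kilobase. Col3a1, their usual partner in soft tissue, was at 0.196 CPM per kilobase. The level of the longest transcript stands in for all isoforms here, so the order of close neighbours depends on it.

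**Figure D1:**
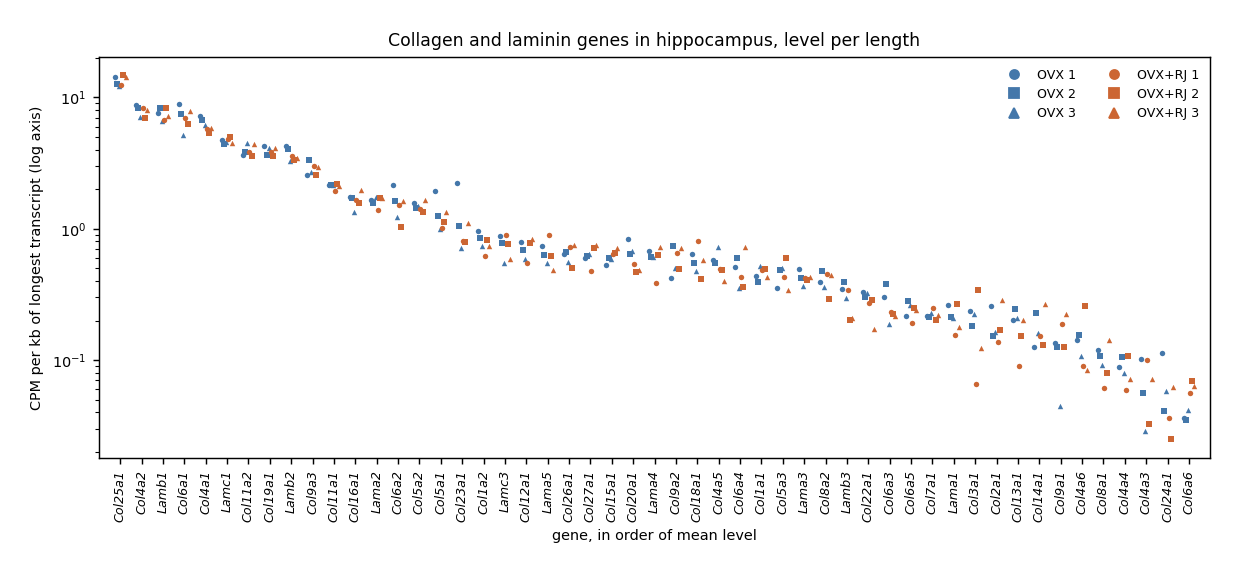
Level of 51 tested genes in the 6 libraries, as CPM per kilobase of the longest transcript on a log axis, in order of the mean (circle, square and triangle are libraries 1, 2 and 3; blue is OVX and orange OVX+RJ). Col25a1 leads with 12.3 to 14.7, and Col6a6 is last of the tested genes at 0.0503 on average.

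The design sets food with royal jelly against plain food in mice without ovaries, here for the genes of the matrix. With edgeR's quasi-likelihood method and a Benjamini-Hochberg threshold of 0.05 over 18629 genes, no collagen or laminin gene was called, and over all genes the share called was 0%. The lowest adjusted p of a member was 0.986. DESeq2, limma-voom and edgeR with robust empirical Bayes also called 0 members. At an unadjusted p under 0.05 there were 2 members of 52, Col4a1 and Col20a1, both lower in OVX+RJ, a share of 3.85% against 4.05% of all genes tested. By direction, the share over all genes was 1.91% for lower values, where both members fall, and 2.14% for higher values. At 6 members (11.5%) the groups parted, with no overlap of library values, against 10.5% of all genes tested. Of these, 4 were lower (7.69%, against 5.95% of all genes) and 2 higher (3.85%, against 4.53%).

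Log2 fold changes of OVX+RJ against OVX were negative in 31 of the 52 members (59.6%, against 50.4% of all genes tested). Their median was -0.017, against -0.0015 over all genes, and the median size without sign was 0.12, against 0.0995. How firmly a change can be limited depended on the level. For the 12 members with a mean of at least 10 CPM, the 95% interval of the log2 difference, from limma's moderated errors, lay within ±0.5 for 11. Over the 52 tested members the interval lay within ±1, a 2-fold change, for 42.

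**Figure D2:**
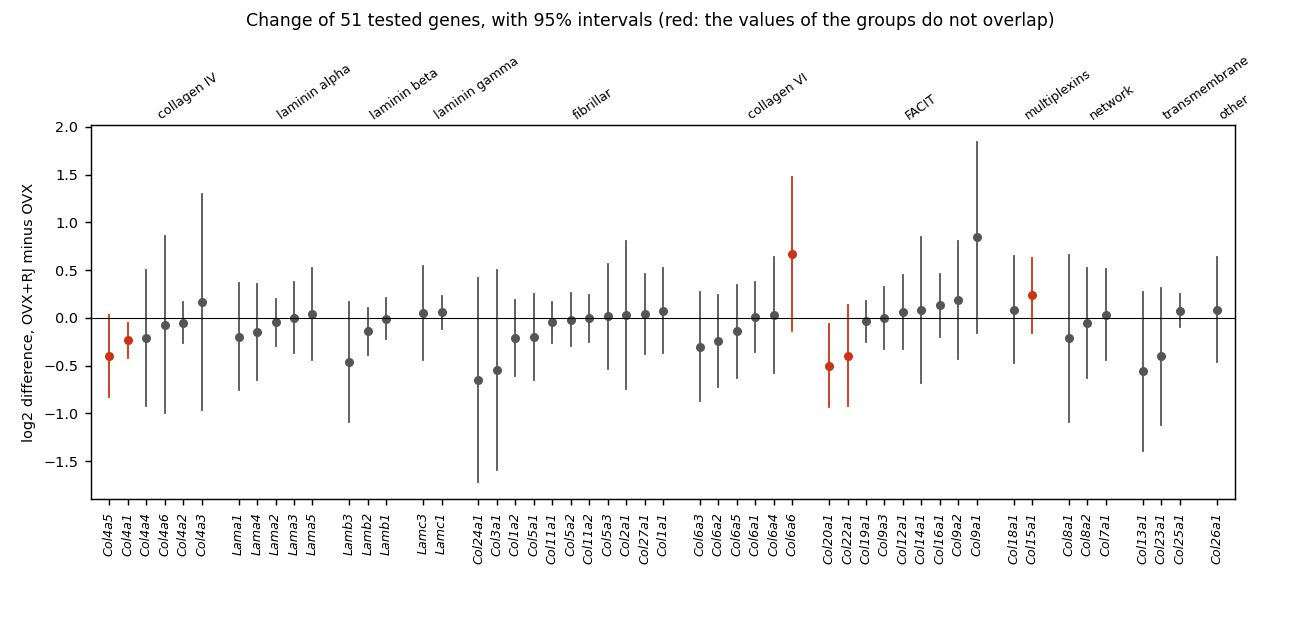
Log2 difference between OVX+RJ and OVX from limma for 51 tested genes with its 95% interval, grouped by class. The intervals of Col4a1 and Col20a1 lie below 0 and the others include it, and the 6 genes in red are those whose library values do not overlap between the groups.

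Collagen IV is the collagen of basement membranes, and its most widespread trimer holds the chains of Col4a1 and Col4a2. Mutations in either gene cause disease of small brain vessels. Col4a1 was 47.6, 44.6 and 40.6 CPM in OVX 1, 2 and 3 and 37.9, 35.4 and 38.6 CPM in OVX+RJ 1, 2 and 3. Each OVX library was above each OVX+RJ library, and the means were 44.3 ± 3.51 and 37.3 ± 1.67 CPM (SD, n = 3 each). The log2 fold change was -0.24 (SE 0.083), with an unadjusted p of 0.0138 and an adjusted p of 0.986 in edgeR. Col4a2 was 56.4, 53.9 and 45.7 CPM in OVX and 53.6, 44.6 and 51.3 CPM in OVX+RJ. These values overlapped, and the log2 fold change was -0.049 (SE 0.10), with a 95% interval from -0.27 to 0.17.

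Col4a1 and Col4a2 lie head to head and are transcribed away from each other from one shared promoter. In RefSeq (GRCm38.p6) the annotated starts overlap by 22 bases at chr8:11312805-11312826. The stretch is shown because both transcripts begin in it, on opposite strands. Capitals mark GGGCGG, the GC box, or its complement CCGCCC.
Col4a2 strand: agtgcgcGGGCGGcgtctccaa
Col4a1 strand: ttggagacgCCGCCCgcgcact
The GC box was found on either strand in 35.7% of all 32851 RefSeq promoter windows, which run from 250 bases before a start to 50 after it. It was found in 26 of the 44 windows that belong to the 40 member genes matched by symbol. CCAAT, the CCAAT box, was found on either strand in 14 of those 44 and in 37.4% of all windows, and TATAAA, the TATA box, in 5 of 44 and in 13.6%. Of the common pair, the Col4a1 window holds 1 GC box and 1 CCAAT box, and the Col4a2 window 3 GC boxes and 1 CCAAT box. The windows overlap, so the pair shares some of these matches.

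The balance of the pair was compared within each library, where sequencing depth cancels. The ratio of Col4a1 to Col4a2, both in CPM per kilobase, was 0.824, 0.808 and 0.866 in OVX, against 0.690, 0.775 and 0.734 in OVX+RJ. All 3 OVX+RJ libraries were below all 3 OVX libraries, at means of 0.733 ± 0.0424 against 0.833 ± 0.0298 (SD). An exact two-sided permutation test gave p = 0.1, the smallest that 3 against 3 allows, and 0.35 after Benjamini-Hochberg adjustment over 7 chain pairs. The pairs were chosen with the values of single genes known.

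Of the other 4 collagen IV genes, Col4a5 was the most abundant. Its chain and those of Col4a3 and Col4a4 form the collagen IV of the kidney filter, where mutations cause Alport syndrome. Col4a5 was 3.77, 3.59 and 4.76 CPM in OVX and 3.25, 3.15 and 2.63 CPM in OVX+RJ. The groups did not overlap, and the log2 fold change was -0.41 (SE 0.20), with an unadjusted p of 0.0639 in edgeR and an adjusted p of 0.986. Col4a6, its neighbour on the X chromosome, was between 0.554 and 1.73 CPM, with the highest and the lowest library both in OVX+RJ. Col4a3 and Col4a4 were between 0.245 and 1.09 CPM in every library, and the groups overlapped at both. Over the class of 6 genes the median log2 fold change was -0.12, with 4 negative.

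Col4a5 and Col4a6 are also transcribed away from each other, but their RefSeq starts are 1342 bases apart, and the ratio of the pair varied widely, from 1.85 to 6.80 in CPM per kilobase. The bases before each start are shown to set this pair beside the one whose starts overlap, without bases that GENCODE M21 places in an exon. Capitals mark a match to one of the same 3 motifs on either strand. The first stretch is chrX:141475169-141475384 on the plus strand and the second chrX:141474077-141474326 on the minus strand, both in GRCm38.p6.
Col4a5: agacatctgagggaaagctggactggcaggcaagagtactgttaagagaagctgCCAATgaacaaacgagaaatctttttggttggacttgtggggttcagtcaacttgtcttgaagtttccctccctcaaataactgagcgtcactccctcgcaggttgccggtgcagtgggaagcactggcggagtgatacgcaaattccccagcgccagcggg
Col4a6: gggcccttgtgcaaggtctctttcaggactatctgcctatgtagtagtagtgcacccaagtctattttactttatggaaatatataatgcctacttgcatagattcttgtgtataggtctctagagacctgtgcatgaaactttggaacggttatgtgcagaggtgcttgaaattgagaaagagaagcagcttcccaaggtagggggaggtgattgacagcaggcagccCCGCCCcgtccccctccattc
The stretch of Col4a5 holds a CCAAT box and that of Col4a6 a GC box. The full window of Col4a5 holds 1 GC box and 1 CCAAT box, and that of Col4a6 1 GC box. A match describes these letters and is not a binding site.

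**Figure D3:**
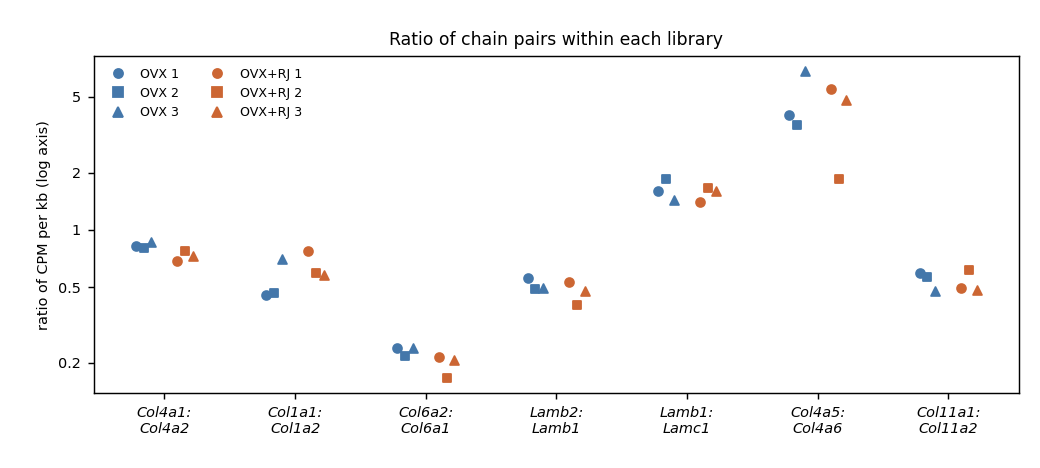
Ratio of the level per kilobase of 7 pairs of chains in each library, on a log axis. For Col4a1 to Col4a2 and for Col6a2 to Col6a1 all OVX+RJ libraries lie below all OVX libraries, and for the other 5 pairs the groups overlap.

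Laminin genes showed levels close to each other in the groups. Their median log2 fold change was -0.042 over 11 genes, 8 of them negative, and at none did the groups part. Lamb1, a beta chain of widespread laminins, was 44.1, 47.7 and 38.4 CPM in OVX and 39.2, 47.6 and 41.4 CPM in OVX+RJ. Lamc1, the gamma chain common to most laminins, was 36.4, 33.9 and 35.1 CPM in OVX and 36.6, 37.9 and 34.2 CPM in OVX+RJ. For both the 95% interval was narrow: it ran from -0.22 to 0.21 for the log2 difference of Lamb1 and from -0.12 to 0.23 for that of Lamc1.

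Lamb2, a beta chain known from the neuromuscular junction and the kidney filter, was 24.1, 22.6 and 18.5 CPM in OVX and 20.2, 18.6 and 19.3 CPM in OVX+RJ. OVX 3 was the lowest of the 6 libraries, while OVX 1 and OVX 2 were above all OVX+RJ libraries, and the log2 fold change was -0.15 (SE 0.11). Lamb3, a chain of skin laminin, was below 2 CPM in every library, with a log2 fold change of -0.45 (SE 0.29), and the groups overlapped.

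Among the alpha chains, which carry the sites that cell receptors bind, Lama2 was the most abundant per length, at 1.63 CPM per kilobase. It is the alpha chain of muscle, of astrocytes and of pericytes, and its loss causes a muscular dystrophy with white matter changes. Lama2 was 15.99, 14.99 and 16.8 CPM in OVX and 13.3, 16.4 and 16.4 CPM in OVX+RJ. The endothelial chains came next: Lama5 was 8.38, 7.15 and 6.21 CPM against 10.3, 7.06 and 5.49 CPM, and Lama4 was 4.06, 3.66 and 3.68 CPM against 2.34, 3.84 and 4.35 CPM. At both genes the OVX+RJ libraries spread wider than the OVX libraries and took in their whole range. OVX+RJ 1 was the highest library for Lama5 and the lowest for Lama4. Lama1, an alpha chain of early development and the meninges, was 2.51, 2.01 and 1.99 CPM in OVX and 1.48, 2.57 and 1.69 CPM in OVX+RJ. Lama3 and Lamc3, which encode another alpha and another gamma chain, were between 3.24 and 5.25 CPM in every library, with overlapping groups.

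Collagen IV and the laminins meet other proteins in the basement membrane, and 14 genes of such partners were listed. None was called, 10 had a negative log2 fold change (50.4% over all genes tested), and the median was -0.12. At an unadjusted p under 0.05 in edgeR there were 3, all lower in OVX+RJ, against 1.91% of all genes. The groups parted at 3 lower and 1 higher, against 5.95% and 4.53% of all genes. The list was not tested as a set. Nid1 encodes nidogen, which links laminin to collagen IV. It was 5.04, 6.09 and 5.91 CPM in OVX and 4.13, 4.32 and 4.55 CPM in OVX+RJ, a log2 fold change of -0.38 (SE 0.16). Vtn, a matrix protein that brain pericytes make, was 40.8, 44.4 and 39.1 CPM in OVX and 35.4, 35.6 and 34.7 CPM in OVX+RJ (-0.22, SE 0.079). Tinagl1, a basement membrane protein, was 4.98, 4.01 and 3.24 CPM in OVX and 2.39, 2.85 and 2.58 CPM in OVX+RJ (-0.63, SE 0.21). Sparc, a collagen-binding matrix protein, went the other way without overlap, at 199, 203 and 192 CPM in OVX and 216, 208 and 210 CPM in OVX+RJ, a log2 fold change of 0.11 (SE 0.056). Each of the 4 had an adjusted p of 0.986 in edgeR.

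No marker of a vessel wall cell was called. The summed level of 13 pericyte and smooth muscle markers was 173 to 188 CPM in OVX and 164.5 to 172 CPM in OVX+RJ, with 9 of 12 tested negative and a median log2 fold change of -0.13, and the sums of the groups did not overlap. That of 15 endothelial markers was 236 to 243 CPM in OVX and 205 to 242 CPM in OVX+RJ, with 10 of 15 negative and a median of -0.12. No marker of either list was at 0 in any library. At an unadjusted p under 0.05 in edgeR there were 2 endothelial markers and 1 pericyte and smooth muscle marker, all lower in OVX+RJ. The share of lower values at that p was 1.91% of all genes tested. The groups parted at 4 and 2 markers, all lower, against 5.95% of all genes. Within the pericyte sum, Rgs5 alone was 94.3 to 107 CPM in OVX and 90.1 to 97.5 CPM in OVX+RJ, with overlap. Some other marker lists had medians of like size: -0.15 for dentate granule cells (9 of 10 negative) and -0.14 for blood (5 of 5 negative). The median was -0.12 for leptomeningeal fibroblasts and 0.16 for the choroid plexus (8 of 10 positive). Medians were nearer 0 for astrocytes (-0.075), oligodendrocytes (0.068), microglia (-0.063) and hippocampal neurons (0.0055). The dentate granule list held 3 markers with an unadjusted p under 0.05 in edgeR, all lower in OVX+RJ. The choroid plexus list held 3, all higher: Clic6, Ttr and F5, with log2 fold changes of 1.61, 1.32 and 0.72. The leptomeningeal list held 1 lower and 1 higher. Over all genes tested the shares were 1.91% for lower and 2.14% for higher values. The part of these cell types in the values of Col4a1 and its partners was not tested.

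**Figure D4:**
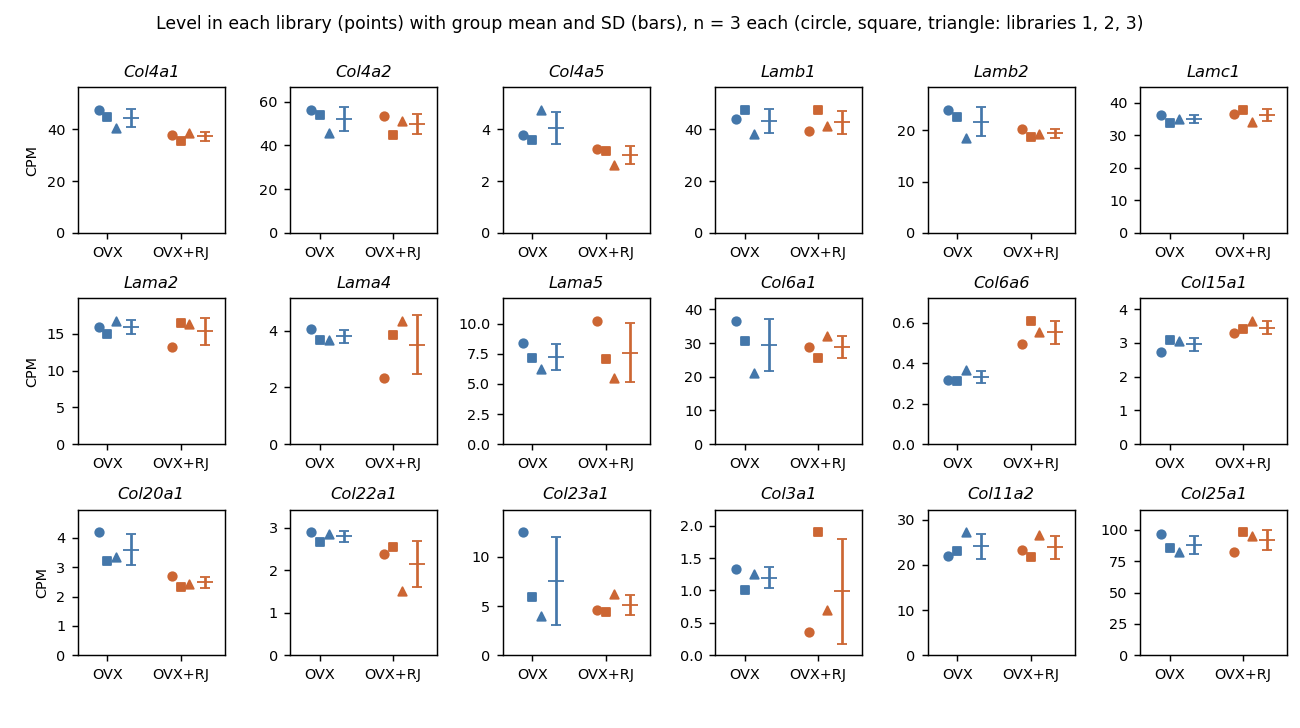
Level of 18 of the genes in each library (circle, square and triangle are libraries 1, 2 and 3) with the group mean and SD, on linear axes that start at 0. The groups part at Col4a1, Col4a5, Col6a6, Col15a1, Col20a1 and Col22a1, and OVX 1 stands far above the rest at Col23a1.

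Fibrillar collagens did not part between the groups at any of the 11 genes, and their median log2 fold change was -0.014. The most abundant per length were Col11a2 and Col11a1, minor fibril chains known best from cartilage and the inner ear. Col11a2 was 22.1, 23.0 and 27.3 CPM in OVX and 23.4, 21.7 and 26.6 CPM in OVX+RJ. Col11a1 was 16.6 CPM in each of the 3 OVX libraries and 14.7, 16.9 and 16.4 CPM in OVX+RJ. Col5a1 and Col5a2, chains that set the width of collagen I fibres, had log2 fold changes of -0.24 (SE 0.21) and -0.014 (SE 0.13).

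The classical collagens of connective tissue were low. Col1a1 was between 2.34 and 3.07 CPM and Col1a2 between 3.33 and 5.16 CPM over the 6 libraries. Col3a1 varied most for a gene of at least 1 CPM on average, at 1.32, 1.01 and 1.25 CPM in OVX and 0.364, 1.91 and 0.693 CPM in OVX+RJ. Its highest and lowest libraries, OVX+RJ 2 and OVX+RJ 1, belong to the same group. The mean log2 CPM of leptomeningeal fibroblast markers, relative to the mean over the 6 libraries, was highest in OVX+RJ 2 at 0.12 and lowest in OVX+RJ 1 at -0.26. Their summed level ordered the libraries otherwise, at 195.9, 212 and 194 CPM in OVX and 181, 193 and 200.4 CPM in OVX+RJ, with OVX+RJ 2 the second lowest. Within that sum, Ptgds alone was 76.5 to 112 CPM and Dcn 22.7 to 55.2 CPM over the 6 libraries. Of the leptomeningeal markers 11 of 15 tested were negative, and 1 of the 16 found in the table, Asgr1, was at 0 in 1 library. Their part in the values of Col3a1 was not tested.

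Collagen VI forms beaded filaments next to basement membranes and is made by fibroblasts and pericytes. Col6a1 was 36.6, 30.5 and 21.2 CPM in OVX and 28.7, 25.5 and 32.04 CPM in OVX+RJ. The OVX libraries alone spanned the whole range, and the log2 fold change was -0.021 (SE 0.17). Col6a2, whose chain joins that of Col6a1 in the same trimer, was 10.6, 7.98 and 6.06 CPM in OVX and 7.41, 5.11 and 7.95 CPM in OVX+RJ. Its ratio to Col6a1 in CPM per kilobase was 0.241, 0.219 and 0.239 in OVX, against 0.216, 0.167 and 0.207 in OVX+RJ. These ratios did not overlap, at an exact permutation p of 0.1 and 0.35 after adjustment over the 7 pairs.

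Col6a3, Col6a4 and Col6a5, which encode chains that take the third place in the trimer, were between 1.79 and 5.38 CPM in every library. Col6a6, a further such chain, had the lowest level per kilobase of the tested genes, with counts of 11, 18 and 15 in OVX, against 19, 24 and 20 in OVX+RJ. Scaled to depth it was 0.317, 0.310 and 0.368 CPM against 0.494, 0.610 and 0.554 CPM, without overlap. The log2 fold change was 0.74 (SE 0.37), with a 95% interval from -0.14 to 1.48, an unadjusted p of 0.0892 and an adjusted p of 0.986 in edgeR.

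The FACIT collagens, which sit on the surface of fibrils through interrupted helices, held the other member with a low p. Col20a1 was 4.21, 3.22 and 3.36 CPM in OVX and 2.70, 2.34 and 2.44 CPM in OVX+RJ. All OVX libraries were above all OVX+RJ libraries, and the log2 fold change was -0.51 (SE 0.20), with an unadjusted p of 0.0275 and an adjusted p of 0.986 in edgeR. Col22a1, known from tissue junctions, was 2.91, 2.66 and 2.85 CPM in OVX and 2.39, 2.54 and 1.52 CPM in OVX+RJ. The groups parted here by a narrow gap, and the log2 fold change was -0.37 (SE 0.24), or -0.17 without OVX+RJ 3.

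The other FACIT genes overlapped between the groups. Col19a1, which hippocampal interneurons make and which has a role in the formation of inhibitory synapses, was the most abundant of them, at 23.0, 19.6 and 22.2 CPM in OVX and 20.8, 19.5 and 22.4 CPM in OVX+RJ. Its log2 fold change was -0.038, with a 95% interval from -0.26 to 0.18. Col9a3, Col16a1 and Col12a1 had means between 7.96 and 9.01 CPM in the groups, and log2 fold changes from -0.013 to 0.13. Col9a1 had the largest positive value of the family at 0.82 (SE 0.46), on 7 to 31 counts per library.

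Col25a1, the leading transmembrane collagen, was 96.3, 85.2 and 82.3 CPM in OVX and 82.7, 98.5 and 94.9 CPM in OVX+RJ. The groups overlapped, and the log2 fold change was 0.077 (SE 0.079), with a 95% interval from -0.098 to 0.25. Col23a1, another transmembrane collagen, was 12.6, 5.97 and 4.02 CPM in OVX and 4.57, 4.45 and 6.24 CPM in OVX+RJ. OVX 1 alone set its difference: the log2 fold change was -0.54 (SE 0.33) with all 6 libraries and 0.024 without OVX 1. Col13a1, of the same class, was between 0.286 and 0.774 CPM.

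The multiplexins Col15a1 and Col18a1 encode the collagens of vessel basement membranes that carry heparan or chondroitin sulfate and release the antiangiogenic fragments restin and endostatin. Col15a1 was 2.74, 3.08 and 3.04 CPM in OVX and 3.30, 3.40 and 3.66 CPM in OVX+RJ. It was the only member beside Col6a6 with higher values in OVX+RJ without overlap, and its log2 fold change was 0.23 (SE 0.18), with an unadjusted p of 0.228. Col18a1 was 3.6, 3.08 and 2.65 CPM against 4.55, 2.34 and 3.21 CPM, with overlap. Col7a1, the anchoring collagen of skin, Col8a1 and Col8a2, the network collagens of vessels and cornea, and Col26a1 were between 0.312 and 2.31 CPM in every library, and their groups overlapped. Col7a1 was 1.99, 1.98 and 2.11 CPM in OVX and 2.31, 1.85 and 2.02 CPM in OVX+RJ. Col26a1 was 1.79, 1.84 and 1.55 CPM in OVX and 2.03, 1.40 and 2.11 CPM in OVX+RJ.

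The 3 members under the filter on low counts were Col10a1, Col17a1 and Col28a1. Col10a1, a cartilage collagen, had 0, 2 and 0 counts in the OVX libraries, against 9, 0 and 2 with royal jelly. Its exons overlap on the opposite strand those of Nt5dc1, which had 68 to 103 counts. Col17a1, a skin collagen, had counts of 2, 8 and 0 against 4, 8 and 8. Col28a1 had counts of 6, 12 and 7 against 6, 0 and 4, and scaled to depth its OVX libraries (0.172 to 0.206 CPM) lay above its OVX+RJ libraries (0 to 0.156 CPM). A count of 0 allows up to 3 counts, between 0.0736 and 0.0864 CPM in the libraries that had one, so these genes were not detectable there rather than absent.

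Of the 55 members, 16 share exon bases with another gene in GENCODE M21, 13 of them on the opposite strand, and the strand setting of the counting is not given in the sources used here. Of the 6 members whose groups did not overlap, Col4a5 has no such overlap. Col4a1 shares exon bases on the opposite strand with Col4a2, which had 1755 to 3132 counts in each library. Gm16308, antisense to Col22a1, had 0 to 3 counts in each library, and Gm12426, antisense to Col15a1, also had 0 to 3. A gene overlaps Col20a1 on its own strand and another Col6a6 on the opposite strand, and neither is a row of the table under that name.

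Genes that make, bind and break down collagen were described from lists. Of 31 tested genes of processing and crosslinking, such as the hydroxylases, the chaperone gene Serpinh1 and the lysyl oxidases, 17 were negative and 14 positive, the median was -0.012, and none had an unadjusted p under 0.05. Of 18 tested receptor genes 10 were negative, with a median of -0.059. One of them, Sdc4, which encodes a heparan sulfate proteoglycan of the cell surface, had an unadjusted p of 0.0136 in edgeR. It was 84.5, 82.0 and 85.4 CPM in OVX and 73.1, 75.6 and 70.5 CPM in OVX+RJ, without overlap, with a log2 fold change of -0.19 (SE 0.064) and an adjusted p of 0.986. Of 11 tested genes of breakdown, mostly metalloproteinases and their inhibitors, with Ctsk and Mrc2 besides, 5 were negative. Their median was 0.024 and none had an unadjusted p under 0.05.

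The values were also described library by library. The summed level of the family was 580, 536 and 489 CPM in OVX 1, 2 and 3 and 502, 512 and 536 CPM in OVX+RJ 1, 2 and 3, so the OVX libraries enclosed all OVX+RJ libraries. OVX 1 had the highest value of the 6 libraries at 15 of the 52 tested members (28.8%), against 19.5% of all genes tested. OVX 3 had the lowest at 13 members (25%), against 14% of all genes, and OVX+RJ 2 at 15 (28.8%), against 14.3%. In OVX 1 the choroid plexus and oligodendrocyte markers were at their lowest of the 6 libraries, with mean log2 CPM of -0.69 and -0.48 relative to the mean over all libraries. The part of tissue sampling in the values of OVX 1 was not tested.

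**Figure D5:**
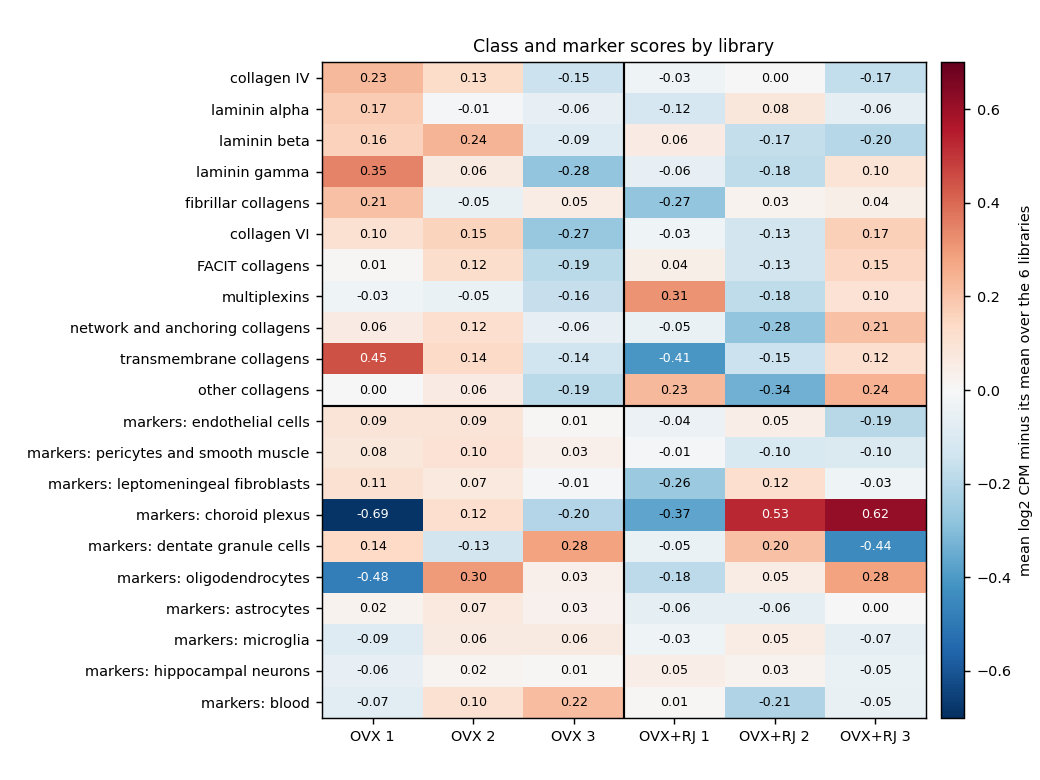
Mean log2 CPM of each class of genes (above the line) and of each list of cell type markers (below it) in each library, minus its mean over the 6 libraries. Choroid plexus markers run from -0.69 to 0.62, and no class of collagens or laminins separates the groups.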

How the data were processed

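Poly(A) RNA was sequenced from directional libraries, per the labels' protocols. Per the submitters' processing notes, HISAT2 2.2.1 and StringTie 2.2.1 were used, as were fastp 0.23.4 and bcl2fastq 2.19, with the build GRCm39; roles and order are not stated there. The values deposited by the authors are expected counts per gene symbol, not scaled between libraries. At 51 of 32067 features some were not whole, and all were rounded for the tests. The sources used here do not give the annotation, the strand setting or the handling of multiply aligned reads.

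Counts were fitted in R 4.3.3 with edgeR 4.0.16 (filterByExpr, TMM factors of 0.978 to 1.01, glmQLFit, glmQLFTest), with Benjamini-Hochberg adjustment over 18629 genes at 0.05. CPM were scaled to the total of all rows. Standard errors and intervals are limma 3.58.1's (log2 CPM, prior count 2). They belong to limma's own log2 differences, which can depart from the edgeR log2 fold changes printed beside them. For Col23a1 limma gave -0.40 and edgeR -0.54, and for Col3a1 limma gave -0.55 and edgeR -0.26. Alternatives were DESeq2 1.42.0, limma-voom, robust empirical Bayes, other scalings and filters, a replicate block and each library left out.

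Values in every library were given for members with an unadjusted p under 0.05, parted groups, the highest level of a class, a highest library over 3 times the lowest at 1 CPM or more on average, or a chain of the main basement membrane trimers. Others were chosen after their values were seen. Of the 4 lists of other genes, those with an unadjusted p under 0.05 or parted groups were named. The members and lists were chosen with earlier results of these data known. Lengths and overlaps came from GENCODE M21 (GRCm38) by symbol, and promoters from RefSeq (GRCm38.p6), with 44 windows of member genes. The files' build differs, and no coordinate of theirs was used. One member, included in the counts, is not reported here by name.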

Additional observations from a re-analysis of the deposited data

How the results depend on the processing

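No member was called under any of the 15 alternatives. Over all genes, where edgeR called 0, DESeq2 called 12, robust empirical Bayes 3, the fit with a replicate block 1, and fits without 1 library 0 to 8. The replicate numbers are not stated to pair the libraries: same-numbered libraries correlated at 0.046, -0.0024 and 0.0031 in their deviations from the group means. OVX 2 and OVX 3 each correlated best with another number, and with the replicate block 0 members were called. The number of members with parted groups was 5 to 7 under other settings (11.5% to 12.7%, against 8.14% to 10.7% of all genes). Without 1 library it was 6 to 13 (11.5% to 25%, against 18.8% to 22.2% of all genes). The median log2 fold change was -0.031 to -0.016 under other settings and -0.11 to 0.0028 without 1 library, and that of collagen IV was -0.315 to -0.045 without 1 library.

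Col4a1, Col4a5, Col6a6, Col15a1, Col20a1, Col22a1, Lamb2, Col25a1, Col26a1, Lama1 and Lamc1 kept their direction in every fit that tested them. Log2 fold changes ran from -0.29 to -0.19 for Col4a1 and from -0.59 to -0.39 for Col20a1. The unadjusted p of both was over 0.05 without OVX 1 and without OVX+RJ 2, and that of Col20a1 also without OVX+RJ 3. Other members fell under 0.05 in edgeR: Col23a1, Col6a3 and Lamb2 without OVX 3, Col4a5 and Lamb3 without OVX+RJ 1, and Col3a1 without OVX+RJ 2. Without 1 library, 0 to 5 of 52 members were under 0.05, against 3.26% to 5.88% of all genes tested. At other named members the sign changed in some fits, also at Col23a1 and Col3a1, whose main values were -0.54 and -0.26. Col6a1, at -0.021, was 0.0075 with limma-voom and 0.0022 with the replicate block. Without 1 library in turn, log2 fold changes ran from -0.20 to 0.16 for Col6a1, -0.082 to 0.098 for Col11a2, -0.16 to 0.34 for Col18a1, -0.10 to 0.014 for Col19a1, -0.84 to 0.024 for Col23a1, -1.16 to 0.13 for Col3a1, -0.13 to 0.031 for Col4a2, -0.063 to 0.12 for Col7a1, -0.087 to 0.044 for Lama2, -0.29 to 0.11 for Lama4, -0.20 to 0.28 for Lama5 and -0.089 to 0.066 for Lamb1. The log2 differences of chain ratios, an alternative added after the data were seen, ran from -0.15 to 0.031 for Lamb1 to Lamc1, -0.62 to 0.17 for Col4a5 to Col4a6 and -0.15 to 0.019 for Col11a1 to Col11a2, and from -0.23 to -0.14 for Col4a1 to Col4a2. The causes were not tested. Below a mean of 10 CPM, most 95% intervals reach beyond ±0.5 on the log2 scale.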
